A study of Homo sapiens with 4 samples.

Results

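The SLC25 genes code for the mitochondrial carriers, the membrane proteins that pass nucleotides, phosphate, organic acids, amino acids, coenzymes and iron across the inner mitochondrial membrane. Rows of the deposited expression table whose symbol is SLC25A followed only by a number were taken as members, which gave 48 of 60609 gene identifiers. They were measured in CCRF-CEM, a human leukaemia line of T cell origin (acute lymphoblastic), in the derivative CCRF-CEM/HA-AMPKa2, which both groups share. The cells without glucose (No glucose, 2 libraries, ONG_9 and ONG_10) spent 24 hours in medium lacking glucose, and the control cells (Ctrl, 2 libraries, CTRL_7 and CTRL_8) spent 24 hours in control medium. The labels list the control cells under no treatment, the design text calls them vehicle, and neither says whether the derivative is 1 clone.

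Carriers work mostly as exchangers. The ADP/ATP translocases send ATP out of mitochondria in return for ADP, the phosphate carrier brings in the phosphate that ATP synthase needs, and the citrate carrier releases citrate, from which the cytosol makes acetyl-CoA for lipids. The aspartate/glutamate carriers and the oxoglutarate carrier together form the malate-aspartate shuttle, which moves the reducing power made by glycolysis into mitochondria. Other members supply the matrix with cofactors it cannot make, among them coenzyme A, NAD+, S-adenosylmethionine, folate, glutathione and iron.

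All 15 T lineage markers looked up, CD3D, CD3E, CD7 and NOTCH1 among them, had a mean normalized count of at least 50, in keeping with the label of the line. Their sum ran from 124964 to 127007 normalized counts in No glucose libraries and from 113205 to 115358 in Ctrl libraries. Of the myeloid and erythroid markers 0 of 6 and 0 of 5 reached a mean of 50, and MPO and HBB were listed at 0. CD79A and CD79B of a B cell list and EPCAM and VIM of an adherent cell list did reach it, as given at the end. The myeloid sum ran from 34.9 to 60.3 normalized counts in No glucose libraries and from 42.2 to 46.8 in Ctrl libraries, and the erythroid sum from 3.03 to 7.02 normalized counts in No glucose libraries and from 4.81 to 5.35 in Ctrl libraries. The reads recovered per library numbered 19035535 and 20081266 for No glucose and 96698709 and 24513840 for Ctrl, so CTRL_7 was sequenced the most deeply. The labels do not say that the 2 libraries of a group came from separate cultures, so every p-value here measures the spread between these libraries, which may be technical.

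Most carriers that could be tested were lower without glucose. Of the 48 members, 43 had a mean normalized count of at least 1 and entered the test, limma over all 27486 genes at that level, called at 0.05 after Benjamini-Hochberg adjustment. Among these 43, 26 fell and 5 rose, or 60.5% and 11.6%, against 20.7% and 14.4% of all genes tested. All carriers with a mean of at least 50 were protein-coding genes, and 26 of these 35 fell and 3 rose, against 47.2% lower and 18.9% higher, or 66.0% in either direction, among the 10656 protein-coding genes at that level. Over all genes tested, 35.1% were called in either direction. The median log2 fold change was -0.34 over the 43 carriers, 0.04 over all genes tested and -0.20 over those protein-coding genes. Unless another test is named, every fold change given is a difference of log2(normalized count + 1), No glucose minus Ctrl. Such a difference understates changes of low genes.

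Both No glucose libraries lay below both Ctrl libraries for 31 of the 43 carriers and above them for 5, against 31.7% and 35.1% of all genes tested. Among the carriers with a mean of at least 50 these numbers were 29 and 3 of 35, against 57.9% and 27.4% of protein-coding genes at that level. The groups overlapped for 7 carriers. Scaling to library totals in place of the authors' size factors moved the median log2 fold change of all genes by 0.19. With it 16 carriers were lower, all of them among the 26, and the same 5 were higher, against 13.9% lower and 22.2% higher over all genes. Fewer carriers were called without CTRL_7 or without CTRL_8, and fewer rose without ONG_10. Fewer of all genes were called in each of these fits too, and each rests on a lone library in a group. The carrier medians were then -0.37, -0.34 and -0.36 in that order, against 0.03, 0.04 and 0.05 over all genes.

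**Figure D1:**
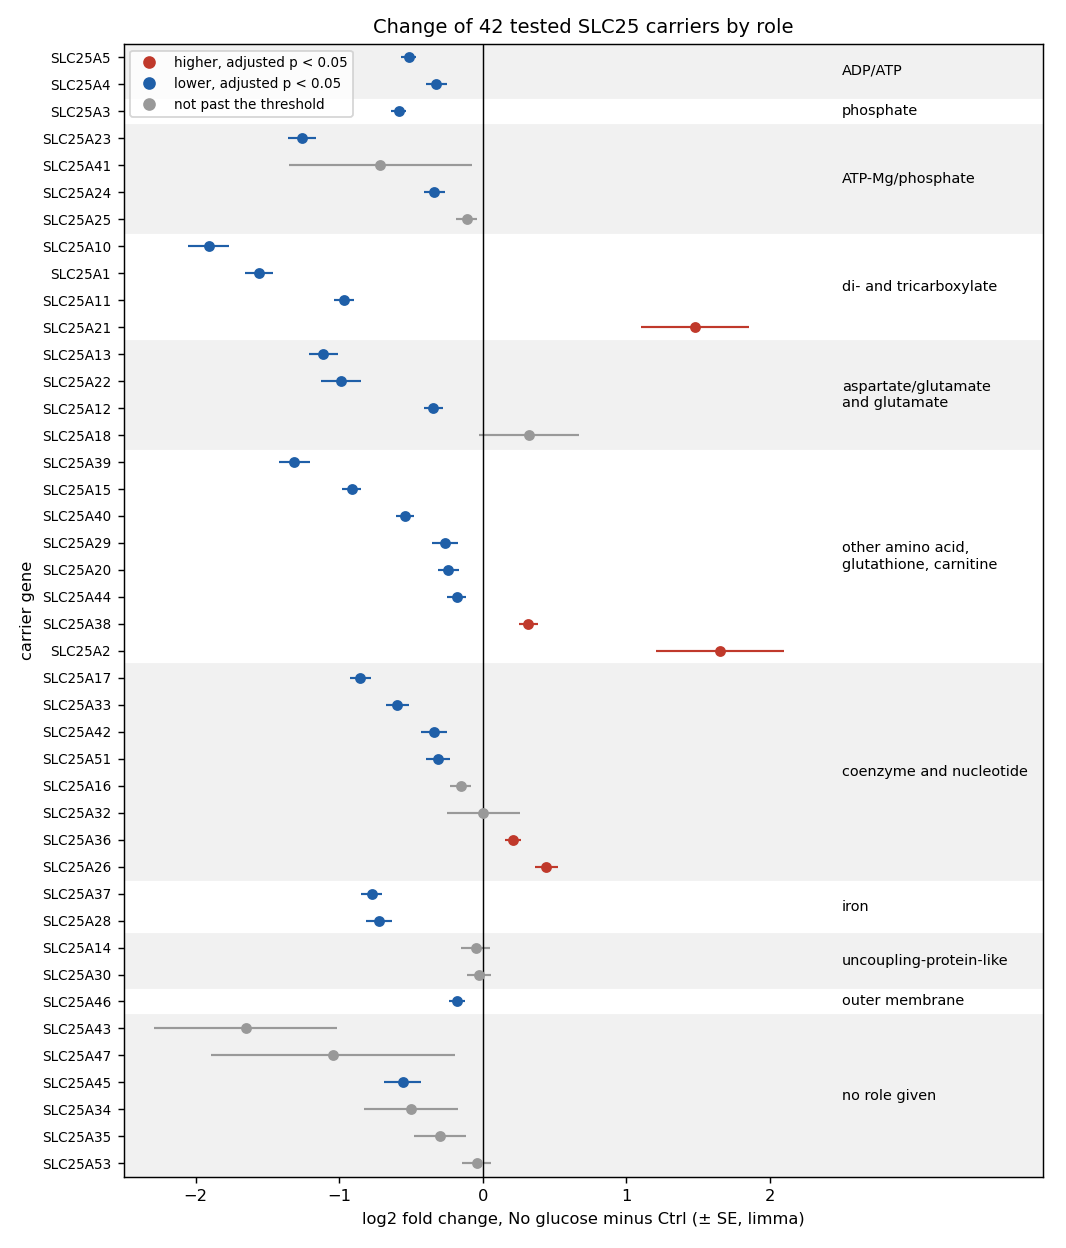
The plot of changes by role gives the log2 fold change (No glucose minus Ctrl, x axis) of 42 of the 43 tested carriers (y axis), grouped by transported substance, with bars for the SE of limma; blue and red mark 25 lower and 5 higher calls, and grey the 12 carriers not past the threshold. The blue points lie between -1.91 for SLC25A10 and -0.18 for SLC25A46.

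As a whole the family took a smaller share of the reads without glucose. Its members held 0.191% and 0.191% of all gene reads in the No glucose libraries, against 0.226% and 0.226% in the Ctrl libraries. The 4 values separate by group. They leave out SLC25A6, which was listed at 0 in every library and not measured here. With 2 libraries against 2 the two-sided exact permutation p was 0.333, the smallest this design can give. In bulk RNA, fewer cells that express a gene and less of its RNA per cell cannot be told apart.

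Per length of transcript, SLC25A3 and SLC25A5 stood far above the other members. SLC25A3, the phosphate carrier, had 8082 normalized counts per kb in No glucose cells and 12130.1 in Ctrl cells, and SLC25A5, the ADP/ATP translocase 2, had 8139 in No glucose cells and 11629 in Ctrl cells (means of 2 libraries, over the median length of coding transcripts in GENCODE 29). The third, SLC25A46, which sits in the outer membrane and takes part in mitochondrial dynamics, had 3311 per kb in No glucose cells and 3749 in Ctrl cells. SLC25A3 and SLC25A5 together held 39.9% and 38.6% of the family's reads in No glucose libraries and 41.9% and 42.0% in Ctrl libraries. The summed normalized count of all the other members was 33105 and 33044 in No glucose libraries, against 43604 and 42977 in Ctrl libraries, so the lower total was not carried by this pair alone.

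**Figure D2:**
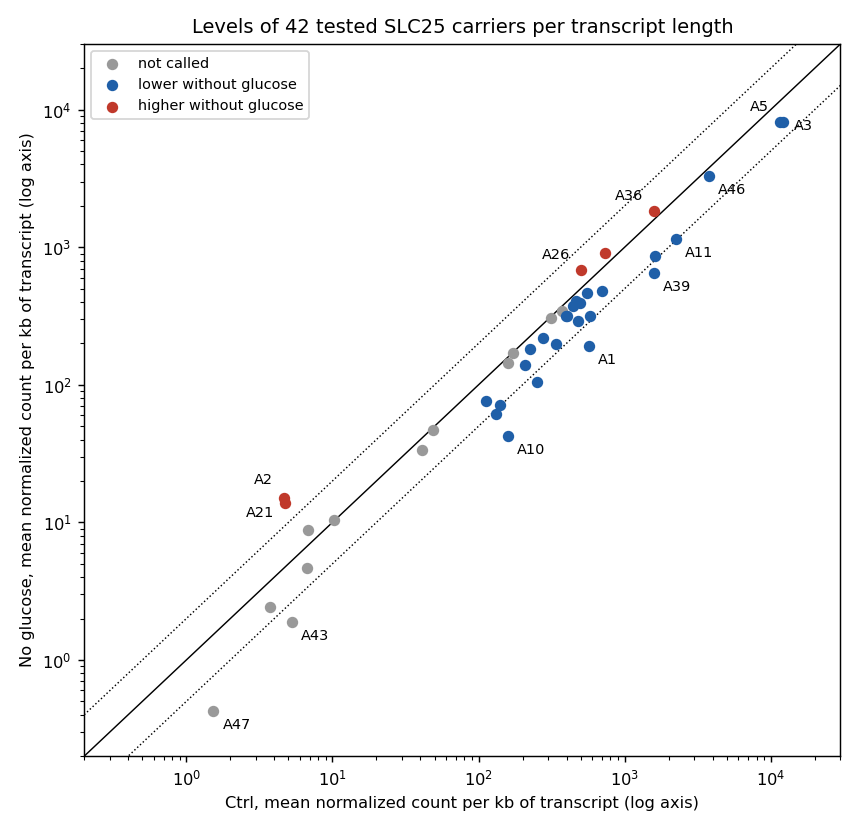
The plot of levels per transcript length sets the mean normalized count per kb in No glucose cells (y axis, log scale) against that in Ctrl cells (x axis, log scale) for 42 of the 43 tested carriers (2 libraries a group); the solid line marks equal levels and the dotted lines a 2-fold difference. Points below the lower dotted line include SLC25A10, SLC25A1 and SLC25A39, and the only red points above the upper one are SLC25A2 and SLC25A21, both under 20 per kb.

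Of the ADP/ATP translocases, the 2 that could be tested fell, beside 47.2% lower among protein-coding genes with a mean of at least 50. SLC25A5, on chromosome X at chrX:119468400-119471319 (GRCh38, GENCODE 29), had 10727 and 10009.9 normalized counts in No glucose libraries, against 14867 and 14765 in Ctrl libraries. Both No glucose libraries were below both Ctrl libraries, with a log2 fold change of -0.52 ± 0.05 (SE, adjusted p = 1.4e-05) in limma with Benjamini-Hochberg adjustment. SLC25A4, the translocase 1 of heart and muscle, had 789.9 and 815 in No glucose libraries and 992 and 1019 in Ctrl libraries, a log2 fold change of -0.32 ± 0.07 (SE, adjusted p = 0.0044). The SLC25A4 call was lost without CTRL_7 (adjusted p = 0.098), without CTRL_8 (adjusted p = 0.14) and with library totals (adjusted p = 0.22). SLC25A31, the germline translocase, was counted in 1 library only, with 2 reads in ONG_9.

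SLC25A6, the translocase 3, was listed at 0 in every library and gives no measurement here. Its gene lies in the pseudoautosomal region, which GENCODE 29 lists once on X and once on Y. All 45 genes of that region in the table were listed at 0 in their X copy, 18 protein-coding genes among them, and 44 of the 45 Y copies were listed at 0. The 15 pseudogenes of SLC25A5 and SLC25A6 in the table summed to 19.7 and 9.82 normalized counts in No glucose libraries and 11.0 and 10.7 in Ctrl libraries, so few reads were given to them. The submitters' processing notes name RSEM. Its settings for reads shared between near-identical copies, and why the X copies were listed at 0, are not given in the sources used here.

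The phosphate carrier SLC25A3, at chr12:98593591-98606379, had 11241 and 10725 normalized counts in No glucose libraries and 16561 and 16408 in Ctrl libraries. The groups did not overlap, and its log2 fold change was -0.59 ± 0.05 (SE, adjusted p = 3.4e-06) with limma. Its ratio to SLC25A5 averaged 1.06 in No glucose libraries and 1.11 in Ctrl libraries. Among the ATP-Mg/phosphate carriers, proteins that set the adenine nucleotide content of the matrix, 2 of 4 fell and none rose with limma, also none at an unadjusted p under 0.05. This is near the 47.2% lower among protein-coding genes with a mean of at least 50 (20.7% of all genes tested), so the count says little. SLC25A23 had 247 and 259.6 in No glucose libraries, against 635 and 579 in Ctrl libraries (log2 fold change -1.26 ± 0.10 SE, adjusted p = 1.6e-06). SLC25A24 had 1131 and 1038 in No glucose libraries and 1359 and 1378 in Ctrl libraries (log2 fold change -0.34 ± 0.07 SE, adjusted p = 0.0034), and lost its call without CTRL_7 (adjusted p = 0.097), without CTRL_8 (0.096) and with library totals (0.15). SLC25A25 had a log2 fold change of -0.11 ± 0.07 and did not pass the threshold (adjusted p = 0.26), and SLC25A41 had at most 18 reads in any library.

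The carriers of di- and tricarboxylates held the 2 deepest falls that passed the test in this family. SLC25A10, the dicarboxylate carrier, which exchanges malate and succinate for phosphate, lies at chr17:81712236-81721016. It had 71.3 and 89.8 normalized counts in No glucose libraries, against 299.9 and 306 in Ctrl libraries, or 26.6% of the control mean. Its log2 fold change was -1.91 ± 0.14 (SE, adjusted p = 1.5e-06) with limma. SLC25A1, the citrate carrier, at chr22:19175575-19178830, fell to 280.5 and 328 in No glucose libraries, against 911 and 881 in Ctrl libraries, 34.0% of the control mean (log2 fold change -1.56 ± 0.10 SE, adjusted p = 3.9e-07). SLC25A11, the oxoglutarate carrier, had 1545 and 1727 in No glucose libraries and 3273 and 3109.9 in Ctrl libraries (log2 fold change -0.97 ± 0.07 SE, adjusted p = 1.2e-06).

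All 3 kept the call in every alternative tried, without either control library and with library totals included. The gaps between the groups were many times the gap within either group. SLC25A21, the carrier of 2-oxoadipate, went the other way at a low level, with 30.3 and 22.4 normalized counts in No glucose libraries and 11.3 and 6.69 in Ctrl libraries, which are 20 and 16 reads and 33 and 5 reads. Its log2 fold change was 1.48 ± 0.38 (SE, adjusted p = 0.0097) with limma. The call was lost without CTRL_8 and without ONG_10, where the log2 fold changes were 1.14 and 1.69. It was also lost with limma without trend (adjusted p = 0.079) and with DESeq2 (adjusted p = 0.093).

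The promoter window of SLC25A1 is shown beside those of the carriers that rose at a mean of at least 50, printed further on. These windows run from 250 bases before to 50 bases after the RefSeq start (GRCh38.p14), 5′ to 3′ on the strand of the gene, with CCAAT or its reverse complement in capitals.
SLC25A1 (chr22:19178687-19178986, minus strand): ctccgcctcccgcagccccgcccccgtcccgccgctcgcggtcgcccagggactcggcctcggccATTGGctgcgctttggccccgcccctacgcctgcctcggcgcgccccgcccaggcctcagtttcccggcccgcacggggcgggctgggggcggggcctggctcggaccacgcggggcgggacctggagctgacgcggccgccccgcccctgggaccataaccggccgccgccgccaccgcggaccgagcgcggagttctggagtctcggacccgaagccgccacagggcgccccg

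Of the carriers of aspartate and glutamate, 3 of 4 fell and none rose with limma, also none at an unadjusted p under 0.05. The shares lower were 47.2% among protein-coding genes with a mean of at least 50 and 20.7% of all genes tested. A group of 4 is too small to be set apart from them. SLC25A13 (citrin) and SLC25A12 (aralar) both import glutamate in exchange for aspartate. SLC25A13, at chr7:96120220-96322147, had 199 and 187 normalized counts in No glucose libraries, against 427 and 407 in Ctrl libraries (log2 fold change -1.11 ± 0.10 SE, adjusted p = 7.3e-06). SLC25A12, at chr2:171784370-171999859, had 1177 and 1159 in No glucose libraries and 1475 and 1491 in Ctrl libraries (log2 fold change -0.34 ± 0.07 SE, adjusted p = 0.0016), a call that was lost without CTRL_7 (adjusted p = 0.076), without CTRL_8 (0.075) or with library totals (0.099). The count of SLC25A13 was 0.165 times that of SLC25A12 in No glucose libraries and 0.281 times in Ctrl libraries, uncorrected for length. SLC25A22, a glutamate carrier, had 167 and 215 in No glucose libraries and 409.8 and 344 in Ctrl libraries (log2 fold change -0.98 ± 0.14 SE, adjusted p = 1.8e-04), while SLC25A18, its close relative, had 15.2 and 22.4 in No glucose libraries and 15.8 and 13.4 in Ctrl libraries, groups that overlapped.

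**Figure D3:**
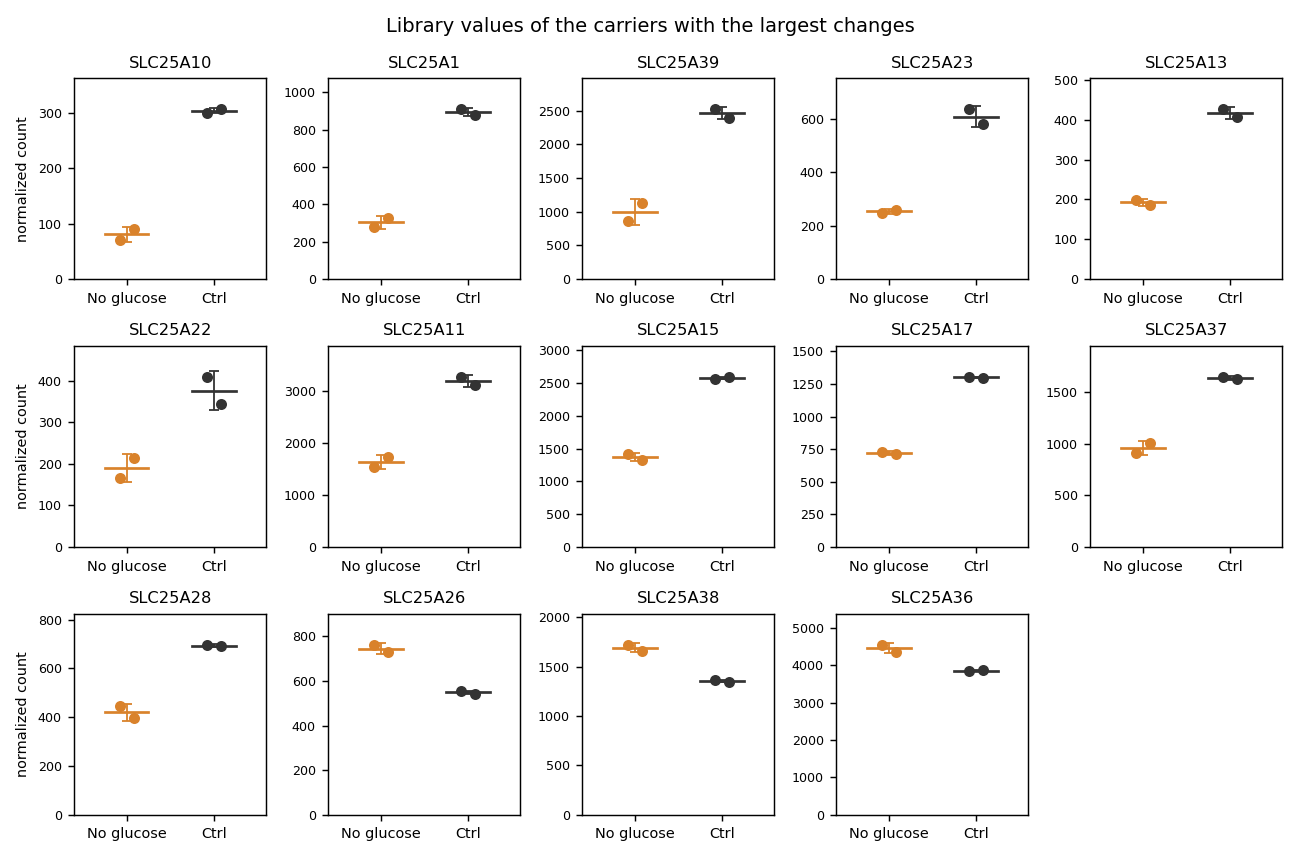
The plot of library values gives the normalized count (y axis, from 0) of each No glucose and Ctrl library for 11 of the 12 called carriers with the deepest falls and the 3 that rose, all with a mean of at least 50; lines and bars mark the mean and SD of 2 libraries. In each of the 14 panels the 2 groups are apart, with the No glucose points below in the 11 that fell and above in SLC25A26, SLC25A38 and SLC25A36.

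Among the carriers of other amino acids, glutathione and carnitine, 6 of 8 fell and 2 rose, against 47.2% lower and 18.9% higher among protein-coding genes with a mean of at least 50, and 20.7% and 14.4% of all genes. SLC25A39, which with SLC25A40 is needed for glutathione in the matrix, had 864 and 1132 normalized counts in No glucose libraries, against 2522 and 2396 in Ctrl libraries (log2 fold change -1.31 ± 0.11 SE, adjusted p = 2.6e-06). The 2 No glucose libraries differed from each other more for this gene than the 2 Ctrl libraries did, yet both were far below them. SLC25A40 had 2001 and 1862 in No glucose libraries and 2822 and 2804 in Ctrl libraries (log2 fold change -0.54 ± 0.06 SE, adjusted p = 4.0e-05). SLC25A15, the ornithine carrier that serves the urea cycle and polyamine precursors, had 1416 and 1322 in No glucose libraries and 2565 and 2591 in Ctrl libraries (log2 fold change -0.91 ± 0.06 SE, adjusted p = 9.9e-07).

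SLC25A29, a carrier of basic amino acids (-0.26 ± 0.09), SLC25A20, the carnitine/acylcarnitine carrier that admits fatty acids for oxidation (-0.24 ± 0.07), and SLC25A44, a carrier of branched-chain amino acids (-0.18 ± 0.06), fell by little in log2 fold change (SE). None of these 3 calls held without CTRL_7, without CTRL_8 or with library totals, where the log2 fold changes were -0.05, -0.03 and, of the opposite sign, 0.03. Their adjusted p-values were 0.29 (SLC25A20), 0.35 (SLC25A44) and 0.32 (SLC25A29) without CTRL_7, and were 0.21 (SLC25A20), 0.37 (SLC25A44) and 0.19 (SLC25A29) without CTRL_8. The SLC25A29 call was also lost without ONG_9 (adjusted p = 0.11).

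SLC25A38, a glycine carrier needed for haem synthesis, had 1722 and 1661 normalized counts in No glucose libraries, against 1366 and 1347 in Ctrl libraries, a log2 fold change of 0.32 ± 0.06 (SE, adjusted p = 0.0024). Both No glucose libraries were above both Ctrl libraries. The call was lost without CTRL_7 (adjusted p = 0.091) and without CTRL_8 (0.097), with log2 fold changes of 0.33 and 0.31. SLC25A2, an ornithine carrier, rose at a level of few reads, 14 and 15 in No glucose libraries and 11 and 7 in Ctrl libraries (21.2 and 21.0 against 3.78 and 9.36 normalized counts), with a log2 fold change of 1.65 ± 0.45 (SE, adjusted p = 0.013). Its call was lost without CTRL_7 and without ONG_10, where the log2 fold changes were 1.09 and 1.66. It was also lost with limma without trend (adjusted p = 0.11) and with DESeq2 (adjusted p = 0.072).

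Of the carriers of coenzymes and nucleotides, 5 of 9 tested members fell and 2 rose, against 47.2% lower and 18.9% higher among protein-coding genes with a mean of at least 50, shares near those of the carriers. SLC25A17, the peroxisomal member of the family, had 731 and 710.0 normalized counts in No glucose libraries and 1304 and 1297 in Ctrl libraries (log2 fold change -0.85 ± 0.07 SE, adjusted p = 3.2e-06). SLC25A51, the mitochondrial NAD+ carrier, had 452 and 446 in No glucose libraries and 559 and 558 in Ctrl libraries (log2 fold change -0.31 ± 0.08 SE, adjusted p = 0.012). SLC25A42, a coenzyme A carrier, changed by -0.34 ± 0.09 (log2, SE), and SLC25A16, also tied to coenzyme A, had -0.15 ± 0.07 and adjusted p = 0.14. The SLC25A51 and SLC25A42 calls were lost without CTRL_7 (adjusted p = 0.17 and 0.24), without CTRL_8 (0.17 and 0.055) and with library totals (0.32 and 0.34).

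The pyrimidine nucleotide carriers SLC25A33 and SLC25A36 moved in opposite directions. SLC25A33 had 546 and 522 normalized counts in No glucose libraries, against 777 and 837 in Ctrl libraries (log2 fold change -0.59 ± 0.08 SE, adjusted p = 1.5e-04). SLC25A36 had 4558 and 4374 in No glucose libraries, against 3857 and 3866 in Ctrl libraries (log2 fold change 0.21 ± 0.06 SE, adjusted p = 0.012), a call that was lost without CTRL_7 (adjusted p = 0.24) or without CTRL_8 (0.25). The ratio of SLC25A33 to SLC25A36 averaged 0.120 in No glucose libraries and 0.209 in Ctrl libraries. That the 2 groups of ratios did not overlap follows from the opposite directions of the 2 carriers and adds nothing to them.

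SLC25A26, which imports S-adenosylmethionine for methylation inside mitochondria, had 763 and 728 normalized counts in No glucose libraries, against 554 and 543 in Ctrl libraries (log2 fold change 0.44 ± 0.08 SE, adjusted p = 0.0011). It was the largest rise among carriers with a mean of at least 50, and the call held without each library in turn. Its exons overlap those of LRIG1 on the opposite strand, which had 423 and 479.9 in No glucose libraries and 339 and 310.3 in Ctrl libraries (0.47 ± 0.10, log2, SE). The strand setting of the counting is not given in the sources used here, so the part of LRIG1 reads in this rise was not tested. SLC25A32, the folate carrier, was low at 31.8 and 28.1 in No glucose libraries and 30.2 and 29.4 in Ctrl libraries, with a log2 fold change of 0.00 ± 0.25, and its exons overlap those of AC012213.5 on the same strand and of DCAF13 on the other.

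CACGTG, the E-box, which is bound by MYC, MAX, TFEB, USF and other factors, was among several motifs searched in the windows. The 3 carriers that rose at a mean of at least 50 each have a window with CACGTG. SLC25A21, which rose at a lower level, has a window without it, not printed here. The SLC25A1 window printed above lacks it too, while some carriers that fell have it. These letters, searched on both strands, were in 9 of the 40 members that have a window in the RefSeq table: 3 of 4 that rose, 5 of 24 that fell, 0 of 7 not called and 1 of 5 not tested. Counted by window, they were in 9 of the 50 member windows and in 7.26% of all 35116 windows. Some genes have several windows, and no share by gene was computed over all genes, so the counts by gene lack a background. The calls of SLC25A38 and SLC25A36 were also lost without either control library. With so few genes that rose, a link between the motif and the direction of change was not tested. A match of letters does not show that a factor binds there. CACGTG and CCAAT are in capitals.
SLC25A26 (chr3:66220751-66221050, plus strand): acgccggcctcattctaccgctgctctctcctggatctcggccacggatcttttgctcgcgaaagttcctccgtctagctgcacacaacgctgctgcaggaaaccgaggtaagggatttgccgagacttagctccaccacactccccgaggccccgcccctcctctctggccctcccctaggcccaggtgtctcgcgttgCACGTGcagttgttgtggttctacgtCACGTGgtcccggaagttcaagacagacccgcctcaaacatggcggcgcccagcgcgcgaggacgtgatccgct
SLC25A38 (chr3:39383120-39383419, plus strand): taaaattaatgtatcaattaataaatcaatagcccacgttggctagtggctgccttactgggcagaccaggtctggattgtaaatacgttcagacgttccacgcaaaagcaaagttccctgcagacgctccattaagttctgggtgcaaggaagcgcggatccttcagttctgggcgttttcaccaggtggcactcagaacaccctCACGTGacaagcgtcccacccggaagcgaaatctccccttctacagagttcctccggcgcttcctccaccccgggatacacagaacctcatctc
SLC25A36 (chr3:140941586-140941885, plus strand): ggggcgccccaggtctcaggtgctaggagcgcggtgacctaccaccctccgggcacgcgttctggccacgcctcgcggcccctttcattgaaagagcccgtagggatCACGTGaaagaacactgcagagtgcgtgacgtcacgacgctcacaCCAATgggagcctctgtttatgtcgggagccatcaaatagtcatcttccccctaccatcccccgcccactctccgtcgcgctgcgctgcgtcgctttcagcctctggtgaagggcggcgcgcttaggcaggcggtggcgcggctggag

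In SLC25A26 the motif begins 50 and 24 bases before the start, and the other 2 of its 3 windows do not hold it. In SLC25A38 it begins 44 bases before the start, and in SLC25A36 143 bases before. The carriers that fell with a window holding CACGTG were SLC25A13, SLC25A22, SLC25A33, SLC25A46 and SLC25A51. CCAAT, searched on both strands, was in 44.0% of member windows and 34.6% of all windows, in 14 of the 24 genes that fell and 2 of the 4 that rose. TGATGCAA, the letters at which ATF4 dimers bind, was in none of the member windows on either strand, against 0.866% of all windows. A further motif that was searched, whose letters are not printed here, was also in none of the member windows and in few of all windows. Both were too rare over all windows for their absence here to say much. CACGTG and TGATGCAA can share letters at their ends, and CCAAT shares none with CACGTG.

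Both mitoferrins, the iron carriers that feed haem and iron-sulphur cluster synthesis, fell, beside 47.2% lower among protein-coding genes with a mean of at least 50. SLC25A37 (mitoferrin 1) had 911 and 1012 normalized counts in No glucose libraries, against 1651 and 1629 in Ctrl libraries (log2 fold change -0.77 ± 0.07 SE, adjusted p = 9.3e-06). SLC25A28 (mitoferrin 2) had 446 and 396 in No glucose libraries and 697 and 690.2 in Ctrl libraries (log2 fold change -0.72 ± 0.09 SE, adjusted p = 6.7e-05). The ratio of SLC25A37 to SLC25A28 averaged 2.30 in No glucose libraries and 2.36 in Ctrl libraries, and these ratios overlapped between the groups.

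Of the relatives of uncoupling proteins, neither of the 2 tested passed the threshold. SLC25A14 had 499 and 424 normalized counts in No glucose libraries and 462 and 491 in Ctrl libraries, and SLC25A30 had 614 and 616 in No glucose libraries and 654 and 602 in Ctrl libraries. The groups overlapped for both, with log2 fold changes of -0.05 ± 0.10 and -0.03 ± 0.08 (SE) that were of the opposite sign with library totals (0.16 and 0.18). SLC25A27 was listed at 0 in every library. The outer membrane member SLC25A46 had 5408 and 5159 in No glucose libraries and 6021 and 5947 in Ctrl libraries (log2 fold change -0.18 ± 0.05 SE, adjusted p = 0.022), a call that was lost without CTRL_7 (adjusted p = 0.32), without CTRL_8 (0.32) or with library totals, where its log2 fold change turned to 0.03.

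Of 7 members given no role here, 6 were tested and 1 fell, beside 20.7% lower over all genes tested. This was SLC25A45, with 162 and 174 normalized counts in No glucose libraries and 272 and 225 in Ctrl libraries (log2 fold change -0.56 ± 0.13 SE, adjusted p = 0.0055). That call was lost without CTRL_7 (adjusted p = 0.16), without ONG_10 (0.054) and with library totals (0.072). SLC25A53 had 279 and 309 in No glucose libraries and 298 and 306 in Ctrl libraries, which overlapped. SLC25A34, SLC25A35, SLC25A43 and SLC25A47 had log2 fold changes from -1.65 to -0.30, none past the threshold, and SLC25A43 rested on 6 and 1 reads in No glucose libraries and 35 and 13 in Ctrl libraries. The members under the testing level were SLC25A6, SLC25A27, SLC25A31, SLC25A48 and SLC25A52, and the last 3 had at most 3 reads in any library.

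**Figure D4:**
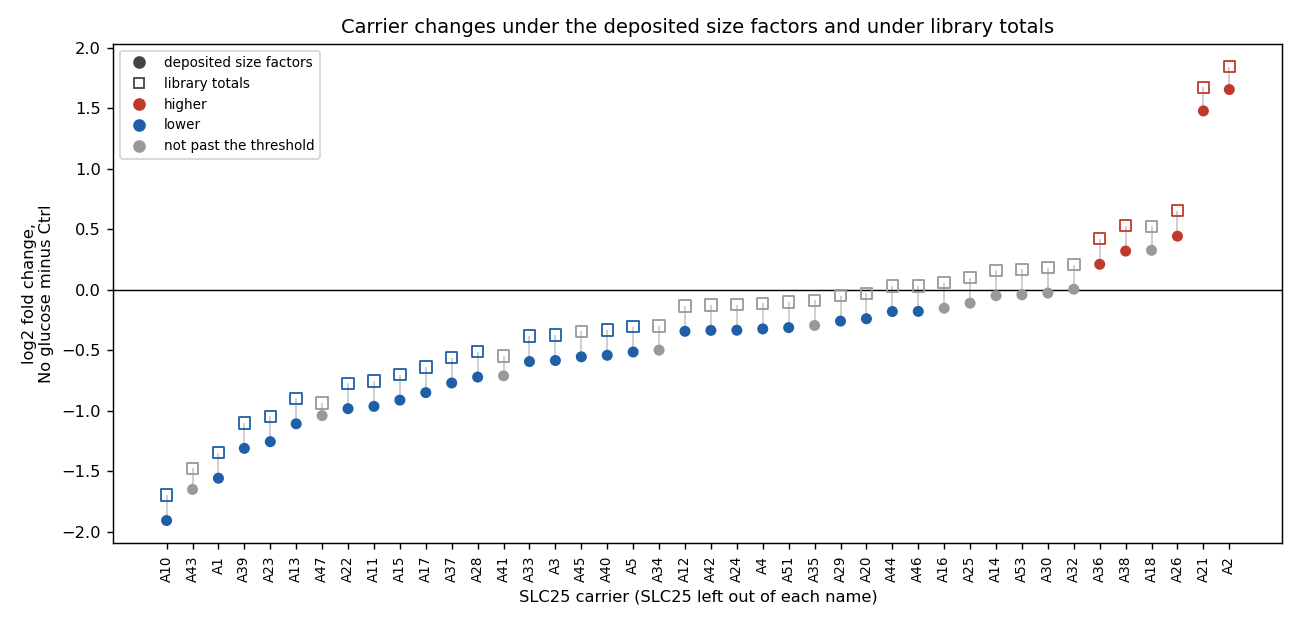
The plot of the 2 scalings gives the log2 fold change (No glucose minus Ctrl, y axis) of 42 of the 43 tested carriers (x axis, in order of change), as filled circles with the deposited size factors and open squares with library totals; colour marks the call under each. The 15 blue squares run from SLC25A10 to SLC25A5, the 5 red ones are SLC25A36, SLC25A38, SLC25A26, SLC25A21 and SLC25A2, and 10 blue circles have a grey square.

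Log2 ratios of normalized counts were compared in 10 pairs of carriers with a shared or related substrate, which were chosen with the results known. In 8 pairs the groups did not overlap, and in SLC25A37 over SLC25A28 and SLC25A42 over SLC25A16 they did. Groups of 2 libraries are often apart: among protein-coding genes with a mean of at least 50, 57.9% lay below and 27.4% above, so the count says little about these pairs. The largest shift was that of SLC25A10 over SLC25A11, whose mean log2 ratio was -4.35 ± 0.12 in No glucose libraries and -3.40 ± 0.07 in Ctrl libraries (SD, n = 2; exact permutation p = 0.333). SLC25A23 over SLC25A24 was next, at -2.10 ± 0.14 in No glucose libraries and -1.17 ± 0.11 in Ctrl libraries. The two-sided exact permutation test cannot go below 0.333 here, and adjustment over the 10 pairs gave 0.417 for the pairs that reached it.

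Other genes of mitochondrial transport were taken from 4 lists drawn up with earlier results of these data known. Of the 5 family members with other names 1 fell and none rose with limma, also none at an unadjusted p under 0.05: MTCH2, an insertase of the outer membrane, had 2626 and 2600.0 normalized counts in No glucose libraries and 5559.8 and 5559 in Ctrl libraries (log2 fold change -1.09 ± 0.05 SE, adjusted p = 1.0e-07). UCP2, an uncoupling protein, had 746 and 745 in No glucose libraries and 697 and 647 in Ctrl libraries, and missed the threshold (adjusted p = 0.18). All 13 tested genes of the route that imports carriers fell, with a median log2 fold change of -0.56, beside 47.2% lower and a median of -0.20 over protein-coding genes with a mean of at least 50, and 20.7% lower and a median of 0.04 over all genes tested. The deepest were TOMM40, the pore of the outer membrane (-1.26 ± 0.10, log2, SE), and TIMM13 (-1.20 ± 0.13), a small chaperone of the space between the membranes. TIMM10, another of these chaperones, had 488 and 532 normalized counts in No glucose libraries and 1068 and 978 in Ctrl libraries (adjusted p = 3.6e-06). TIMM22, the inner membrane channel through which carriers are inserted, had 139 and 123 in No glucose libraries and 206 and 193 in Ctrl libraries (log2 fold change -0.60 ± 0.13 SE, adjusted p = 0.0036).

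Of 18 other membrane transport genes 14 fell and none rose with limma, also none at an unadjusted p under 0.05, with a median of -0.52. The shares lower were 20.7% over all genes and 47.2% over protein-coding genes with a mean of at least 50, whose median was -0.20, also for the next list. SFXN4, of the sideroflexin family, had 446 and 459 normalized counts in No glucose libraries, against 1493 and 1519.5 in Ctrl libraries (log2 fold change -1.73 ± 0.07 SE, adjusted p = 3.7e-08). LETM1, a cation exchanger (-1.41 ± 0.07), VDAC1, the main outer membrane channel (-1.12 ± 0.05), and SFXN2 (-1.11 ± 0.07) followed, in log2 fold change (SE). Among 10 shuttle enzymes 8 fell and none rose, with 1 higher at an unadjusted p under 0.05: GPD1, the cytosolic enzyme of the glycerol phosphate shuttle, had 16.7 and 14.0 normalized counts in No glucose libraries and 7.56 and 6.69 in Ctrl libraries (adjusted p = 0.072). GOT2, the mitochondrial aspartate aminotransferase of the malate-aspartate shuttle, had 2667 and 2500.4 in No glucose libraries and 6194 and 6099.5 in Ctrl libraries (log2 fold change -1.25 ± 0.06 SE, adjusted p = 6.0e-08). ACLY, which turns the exported citrate into acetyl-CoA, had 4571 and 4744 in No glucose libraries and 10278 and 10033 in Ctrl libraries (log2 fold change -1.12 ± 0.05 SE, adjusted p = 6.1e-08). ME2 (-0.71 ± 0.05) and the citrate synthase CS (-0.68 ± 0.06) also fell.

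**Figure D5:**
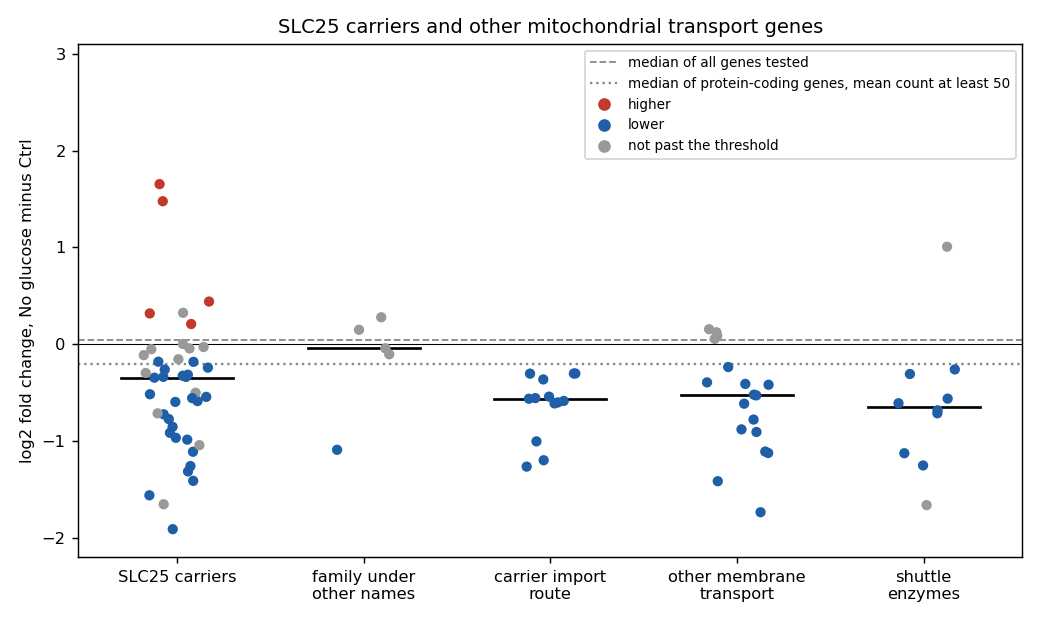
The plot of transport lists gives the log2 fold change (No glucose minus Ctrl, y axis) of each tested gene in the SLC25 family and 4 other lists (x axis), coloured by call, with a black line at each list's median. The medians of the carrier import route, the other membrane transport genes and the shuttle enzymes lie below the dotted line at -0.20, the median of protein-coding genes with a mean count of at least 50.

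Over the 35 carriers with a mean of at least 50, Spearman's rho of log2 fold change was 0.182 with log2 level, 0.167 with transcript length and 0.338 with gene span, as a description over genes of the same 4 libraries. Over 10648 protein-coding genes at that level it was 0.208 with transcript length. Exons of 19 of the 48 members overlap exons of a gene on the opposite strand and those of 6 a gene on the same strand, and 27 members have neither. The median log2 fold change was -0.34 over the 14 carriers at that level with opposite-strand overlap and -0.59 over the 21 without.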

How the data were processed

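Total RNA libraries were read as 75 bp single ends. Per the submitters' processing notes STAR 2.6.0c, RSEM 1.3.0 and DESeq2 1.18.1 were used on hg38, and the annotation release is not given in the sources used here. The deposited signal values are normalized counts: reads per gene over a size factor that the authors set for each library. The deposited log2 values (fold change and its error), score values (test statistic) and p-values are the authors' own comparison, used here only to count calls. The authors' deposited table calls 22 carriers lower and 3 higher, and these were called alike here. It does not call SLC25A2 and SLC25A21, which were called higher here, or SLC25A20, SLC25A29, SLC25A44 and SLC25A51, which were called lower here. The share of all genes that it calls was not counted. Each library's smallest step was read as 1 read. With it 100% of the values above 0 lay within 0.01 of a whole number, and those reads served as counts in the alternatives and as depth.

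Columns show the group but not the replicate number. Entries numbered 60868, and repeats of an identifier were merged. limma 3.58.1 (trend, R 4.3.3) was fitted to log2(normalized count + 1) of genes with a mean of at least 1, two-sided, adjusted over all 27486. edgeR 4.0.16 on the recovered reads called 5 carriers higher and 26 lower, and 10256 genes in all. Positions, exons and lengths came from GENCODE 29, which holds 58502 of the identifiers, and promoters from RefSeq (GRCh38.p14). In simulated libraries of 26613 genes, limma called 186 of 200 changed genes and 2 unchanged ones. Those 200 had a mean of at least 50 and changed by more than the carriers with the smaller calls did. Far fewer genes were changed than were called in the data. Small changes were not tested in this simulation.

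Members and lists were chosen with earlier results of these data known. One member, counted in all totals, and 1 promoter window are not reported here. Library values are given for the called carriers with a mean of at least 50 and the largest changes, up to 12 each way, and for the ADP/ATP, phosphate, aspartate/glutamate, citrate and NAD+ carriers. They are also given for further members where a role group is described, some of them uncalled or with a mean under 50. Of each other list, up to 4 called genes in the main direction were named. UCP2 and GPD1 were added after their values were seen. Alternatives changed the scaling, pseudocount, filter or test, or left out a library.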

Additional observations from a re-analysis of the deposited data

How the results depend on the processing

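No paired analysis was possible because the table's columns carry no replicate numbers of the labels. Over 15 alternatives, 10 of the 31 called carriers kept their call in each, all lower, among them SLC25A10, SLC25A1, SLC25A39, SLC25A23, SLC25A13, SLC25A11, SLC25A15, SLC25A17 and SLC25A37. Outside limma without trend, 16 of the lower and 1 of the higher carriers did. limma without trend called 10 carriers lower and 0 higher, with 4 higher at an unadjusted p under 0.05, and 1873 genes lower and 1378 higher in all. Library totals gave 16 carriers lower, a carrier median of -0.13 and 6109 genes higher, 61.5% of genes called against 40.9%. DESeq2 called 3 carriers and 2436 genes higher, and a fit of protein-coding genes alone called 2480 genes higher, having fewer to test. Leaving out 1 library at a time gave 2 to 5 carriers higher, 16 to 26 lower, carrier medians from -0.41 to -0.34, 2027 to 4172 genes higher and 3318 to 6387 lower, with the family's share of reads lower each time. Without a library of 1 group the spread rests on the pair of the other, and the lone library is assumed to vary like it. Apart from scaling and a left-out library, the cause was not tested.

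Signs turned in small changes and in carriers of few reads. With library totals the log2 fold changes were 0.16 for SLC25A14, 0.057 for SLC25A16, 0.099 for SLC25A25, 0.18 for SLC25A30, 0.029 for SLC25A44, 0.031 for SLC25A46 and 0.17 for SLC25A53. Leaving out 1 library at a time gave -0.17 to 0.067 for SLC25A14, -0.088 to 0.031 for SLC25A30, -0.085 to 0.091 for SLC25A32, -1.49 to 0.065 for SLC25A41 and -0.12 to 0.030 for SLC25A53. SLC25A32 was -0.0036 with TMM factors, -0.047 with edgeR and -0.028 with limma-voom. With 2 libraries a group, carriers of few reads, such as SLC25A2, SLC25A21 and SLC25A43, have wide errors.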

Other observations

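Some genes whose exons overlap a carrier on the opposite strand changed too. TPT1-AS1, which overlaps SLC25A30, had 358 and 345 normalized counts in No glucose libraries, against 172 and 181 in Ctrl libraries (log2 fold change 0.99 ± 0.11 SE, adjusted p = 2.2e-05, limma with Benjamini-Hochberg adjustment), while SLC25A30 itself had groups that overlapped. DBF4, an activator of replication origin firing that overlaps SLC25A40, had 3515 and 3316 in No glucose libraries and 5367 and 5286 in Ctrl libraries (log2 fold change -0.64 ± 0.06 SE, adjusted p = 4.9e-06). METAP1D, which overlaps SLC25A12, had 165 and 164 in No glucose libraries and 267 and 265 in Ctrl libraries (log2 fold change -0.69 ± 0.11 SE, adjusted p = 4.9e-04), and DCAF13, which overlaps SLC25A32, had 4211 and 4106 in No glucose libraries and 6368 and 6253 in Ctrl libraries (log2 fold change -0.60 ± 0.05 SE, adjusted p = 4.9e-06). RNF167, a ubiquitin ligase gene that overlaps SLC25A11, had 3495 and 3530.3 in No glucose libraries and 3597 and 3489.8 in Ctrl libraries, with adjusted p = 0.89, beside the fall of SLC25A11. These neighbours were named after their values were seen.

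Among markers of other cells, the B cell list held 2 of 5 genes at a mean of at least 50, CD79A and CD79B, and its sum ran from 523 to 536 normalized counts in No glucose libraries and from 894 to 907 in Ctrl libraries. In the adherent cell list EPCAM and VIM were above a mean of 50, VIM being widely expressed in leukocytes, and the sum ran from 19481 to 20623 in No glucose libraries and from 15571 to 15999.9 in Ctrl libraries. The part of these lists in the carrier results was not tested.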
